A study of Mus musculus with 25 samples.

Results

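RNA of the mouse hypothalamus was hybridised to in-house printed oligonucleotide arrays either as polyA-selected RNA or as total RNA, and the brightness of the spots was compared between these RNA types gene by gene. The comparison used 19 of the 25 arrays, namely 5 polyA arrays of 4 replicates and 14 total RNA arrays of 7 replicates. The other 6 arrays (145, 146, 152, 153, 190 and 271), all of polyA RNA, were left out by the rule that defines the comparison and were not analysed here. The polyA replicates were 18 h replicates 1 and 2 and 192 h replicates 1 and 2. The total RNA replicates were 18 h replicates 3 to 5, 72 h replicates 3 and 4, and 192 h replicates 3 and 4.

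All mice were BALB/c males aged 8 weeks. Each array held hypothalamic RNA of mice that had received 1E6 CT-26.WT colon carcinoma cells in 300 µl PBS under the skin, together with RNA of mice given PBS alone, in the other dye. The mice were killed by decapitation 18, 72 or 192 h later, and total RNA was extracted with TRIzol. PolyA RNA was selected with the MicroPoly(A) Pure kit, and both RNA types were reverse transcribed with oligo-dT plus random primers and coupled to Cy3 or Cy5. Whether the RNA of a replicate came from a single mouse or from pooled mice is not stated in the labels. The p-values below therefore reflect only how much these samples vary, and part of that variation may be technical.

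Most messenger RNAs carry a poly(A) tail, through which they are retained on oligo-dT, whereas ribosomal RNA, most small RNAs and the messages of replication-dependent histones lack one. PolyA selection therefore takes away ribosomal RNA and concentrates messages. Total RNA primed with random primers yields labelled cDNA from tailed and untailed RNA alike. The hypothalamus is rich in neurons that make secreted peptides such as oxytocin, vasopressin and melanin-concentrating hormone.

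RNA type went with the print platform. All polyA arrays were of platform A, the 2 arrays of total RNA 192 h replicate 3 were of platform B, and the other 12 total RNA arrays were of platform C. A and C carried the same accession at 9066 of 9066 named positions, whereas A and B did so at 33 of 8204 (0.402%). No platform held both RNA types, so RNA type and print platform cannot be told apart. Every difference below is one between polyA RNA on platform A and total RNA on platforms B and C, and all times were pooled.

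Brightness is given as a percentile. The mean log2 of the 2 background-corrected channels was ranked within each scanner file among the 9066 probes named on all platforms, so that 0 is the dimmest and 100 the brightest. A spot whose channels were not both above 0 counts as unmeasured in that file. It counts as unmeasured on an array only if this held in all 3 scanner files. All unmeasured spots share the lowest rank, and their percentile, which depends on how many there are, only places them below the measured spots. In polyA this shared value was 24.08 for 18 h replicate 1, 33.6 for 18 h replicate 2, 34.79 for 192 h replicate 1 and 18.65 for 192 h replicate 2. In total RNA it lay between 2.901 (18 h replicate 5) and 24.1 (192 h replicate 3). Percentiles compare the same probe between arrays, and differences are given in percentile points, polyA minus total RNA.

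Fewer spots were measured on average with polyA than with total RNA, a difference that did not pass the test. Out of 10080 spots, polyA replicates had 5134 (18 h replicate 1), 3306 (18 h replicate 2), 3056 (192 h replicate 1) and 6224 (192 h replicate 2), with replicates of several arrays averaged. Total RNA replicates had from 5173.5 to 9457, with a median of 5864. The ranges overlapped, since 192 h replicate 2 of polyA lay above 4 of the 7 total RNA replicates. The means were 4430 ± 1513 (SD, n = 4) and 6693 ± 1604 (SD, n = 7), and the two-sided exact permutation test gave p = 0.0606. With a spot counted only where both channels were above 0 in all 3 scanner files, the means were 2276 ± 1023 (SD, n = 4) and 3657 ± 1193 (SD, n = 7), and the exact permutation p was 0.0485. Of 8726 genes, 115 were measured in every total RNA replicate and in no polyA replicate. A gene counted as measured in a replicate if any of its arrays measured it, and every total RNA replicate had 2 arrays whereas 3 of the 4 polyA replicates had 1. The reverse count of 0 could hardly be otherwise, since total RNA 18 h replicate 5 left 55 genes unmeasured.

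Replicates of 1 RNA type were not much more alike than replicates of different types. Over 8726 genes, Spearman's rho of brightness had a median of 0.457 within polyA (6 pairs), 0.478 within total RNA (21 pairs) and 0.412 between them (28 pairs). These values describe replicates that share probes and, in part, a platform, and were not tested. The platform B replicate had a median rho of 0.492 with the 4 polyA replicates and of 0.528 with the 6 platform C replicates. PolyA 18 h replicate 2 stood apart, with a median rho of 0.196 to the other 10 replicates, and so did total RNA 18 h replicate 4, with 0.259. For the remaining 9 replicates this median lay between 0.412 and 0.515. Without polyA 18 h replicate 2 the median rho was 0.605 within polyA (3 pairs) and 0.462 between the RNA types (21 pairs).

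**Figure D1:**
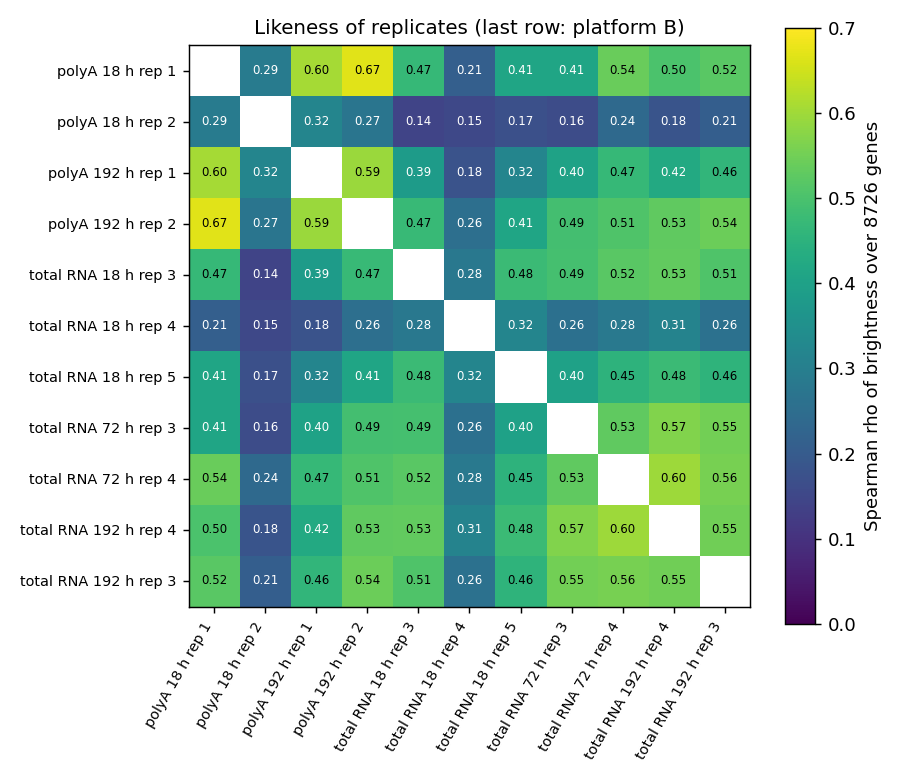
Spearman's rho of brightness over 8726 genes between each pair of the 11 replicates, as colour and number; the first 4 rows are polyA, the others total RNA, and the last row is the replicate on platform B. PolyA 18 h replicate 2 and total RNA 18 h replicate 4 have the lowest values, with medians of 0.196 and 0.259 to the other replicates.

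Which genes were brighter or dimmer with polyA RNA was tested for the 4992 of 8726 genes measured in at least 2 of the 4 polyA and 4 of the 7 total RNA replicates. By limma, with Benjamini-Hochberg adjustment over all 4992, 25 genes were brighter in polyA (0.501%) and 1 was dimmer (0.02%), together 26 (0.521%). This imbalance depended on the treatment of unmeasured spots, and with ranks among measured spots only 6 genes were brighter and 3 dimmer, with 4 of the 26 among them. Unadjusted p was under 0.05 for 648 genes, 494 brighter and 154 dimmer. The median difference of all genes tested was 3.32 points, with 58.4% above 0, but it was -4.27 points with ranks among measured spots only. Unmeasured spots stood on average at 27.8 in polyA and 16.5 in total RNA, so that unmeasured spots themselves stood higher in polyA. Every polyA replicate lay above every total RNA replicate for 111 genes (2.22%) and below for 17 genes (0.341%).

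**Figure D2:**
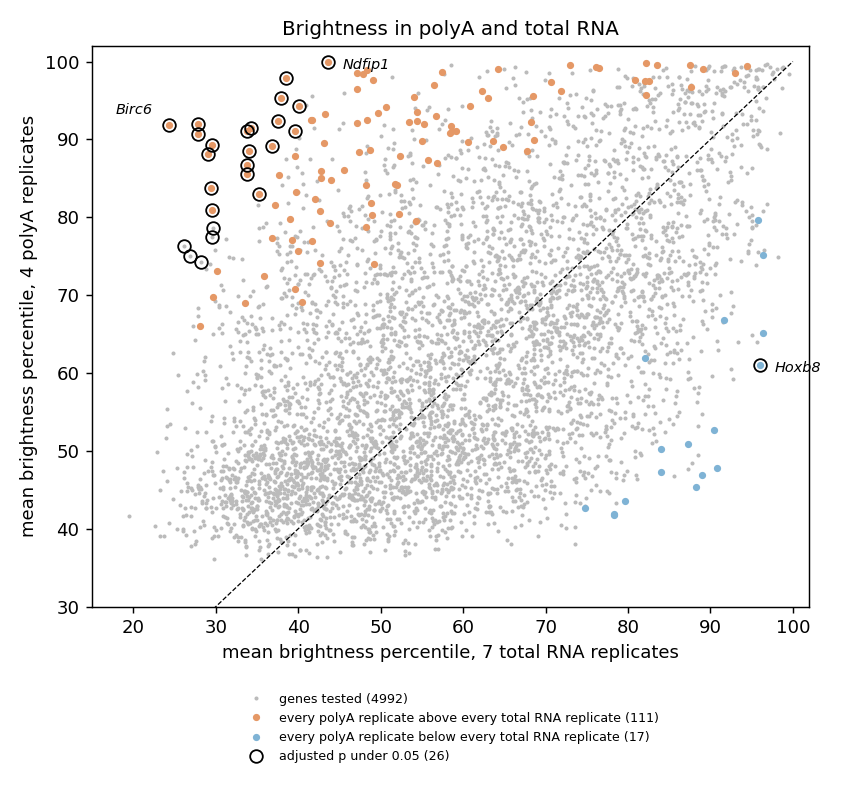
Mean brightness percentile of each of the 4992 genes tested in the 7 total RNA replicates (horizontal axis) and the 4 polyA replicates (vertical axis), with axes that start above 0. Circles mark the 26 genes with an adjusted p under 0.05, of which 25 lie in the upper left and Hoxb8 alone at the lower right; the dashed line is equality.

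Birc6, which encodes a large ubiquitin-conjugating inhibitor of apoptosis, had the largest difference among the called genes. Its polyA percentiles were 95.80 and 96.31 at 18 h and 89.43 and 86.02 at 192 h, and its total RNA percentiles ranged from 11.57 to 41.17 with a median of 23.11. All 4 polyA replicates were among the brightest spots of their arrays, and all total RNA replicates lay far below them, 3 of the 7 unmeasured. The difference was 67.5 ± 11.3 points (SE, limma adjusted p = 0.000958).

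Slc16a11, of the monocarboxylate transporter family, had polyA percentiles of 93.25, 92.32, 95.00 and 87.57, and total RNA percentiles from 12.46 to 53.86 with a median of 24.18. The groups were separate, with 6 of 7 total RNA replicates measured. The difference was 64.2 ± 11.8 points (SE, limma adjusted p = 0.00312).

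Pcdh7, a protocadherin of the cell surface, reached 94.66, 87.19, 95.64 and 85.32 in polyA against 10.58 to 57.34 in total RNA, with a median of 23.11. The groups did not overlap, and 3 of the total RNA replicates were unmeasured. The difference was 62.8 ± 11.8 points (SE, limma adjusted p = 0.00332).

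Scd1, a stearoyl-CoA desaturase that makes monounsaturated fatty acids, had 93.97, 81.39, 87.58 and 94.44 in polyA and 3.46 to 56.82 in total RNA. Again no total RNA replicate reached the lowest polyA replicate. Its difference of 59.9 ± 12.01 points (SE) had a limma adjusted p of 0.00684.

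Herc3, a HECT-type ubiquitin ligase, differed by 57.2 ± 12.4 points (SE). Usp29, a deubiquitinase from an imprinted locus, differed by 57.4 ± 13.3 points (SE). Ndfip1, an adaptor of Nedd4-type ligases, was at 99.99, 99.86, 99.98 and 99.82 in polyA, among the very brightest spots of each array. In total RNA Ndfip1 ranged from 10.58 to 96.46 with a median of 39.05, so its replicates there differed widely, and the difference of 56.3 ± 14.1 points (SE) had a limma adjusted p of 0.0465. Klhdc3, a kelch-repeat substrate receptor of a cullin ligase, differed by 54.3 ± 13.7 points (SE).

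Serbp1, an mRNA-binding protein, was at 99.11, 96.16, 99.10 and 97.28 in polyA. In total RNA it ranged from 20.68 to 94.47 with a median of 23.11, so that 1 total RNA replicate came close to the polyA ones. Its difference was 59.4 ± 13.99 points (SE, limma adjusted p = 0.0288).

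Genes of neurons and glia were among the calls. Elavl3, a neuronal RNA-binding protein, was the only called brighter gene measured in all 7 total RNA replicates. It had 89.21, 72.23, 79.87 and 90.67 in polyA and 12.99 to 53.13 in total RNA, with a median of 40.30. The lowest polyA value was above the highest total RNA value, and the difference was 47.8 ± 12.1 points (SE, limma adjusted p = 0.0465).

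Syt1, the calcium sensor of synaptic vesicle release, had 99.52, 33.60, 99.28 and 77.65 in polyA, where 33.60 is an unmeasured spot in 18 h replicate 2. In total RNA it lay between 20.68 and 43.45 with a median of 28.33. That 1 polyA replicate fell inside the total RNA range, and the other 3 were above it. The difference was 47.9 ± 11.98 points (SE, limma adjusted p = 0.0465).

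Olig1, a transcription factor of the oligodendrocyte lineage, had 81.29, 69.14, 89.39 and 84.05 in polyA and 18.46 to 55.56 in total RNA, with a median of 24.28. The groups were separate, and the highest total RNA value was that of the platform B replicate. The difference was 51.5 ± 11.4 points (SE, limma adjusted p = 0.0221).

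Ipw, an imprinted long non-coding RNA of the Prader-Willi region, was the only non-coding RNA called. It had 77.82, 82.64, 99.13 and 96.77 in polyA and 11.26 to 76.20 in total RNA, with a median of 23.11. The gap between the groups was narrow, at the lowest polyA and the highest total RNA replicate. The difference was 52.3 ± 13.3 points (SE, limma adjusted p = 0.0465).

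Over the 25 brighter genes, mean percentiles ran from 74.31 to 99.92 in polyA and from 24.38 to 43.61 in total RNA, and differences from 46.11 to 67.51 points. For 20 of the 25 the groups did not overlap. Of their 175 total RNA values 53 were from unmeasured spots, against 4 of their 100 polyA values, so that many of these differences rest on unmeasured spots in total RNA. A replicate with the spot measured in any file counts here as measured, although its other files may stand at the lowest rank. These counts therefore leave out part of the values at the lowest rank. Among the genes not yet described, Surf2 differed by 59.1 ± 11.5 points (SE) and B3galt1, a galactosyltransferase, by 54.4 ± 11.8 points (SE). Zbtb7a, a transcriptional repressor, differed by 54.6 ± 12.3 points (SE), and Neurog1, a proneural factor, by 48.96 ± 12.05 points (SE). Golga7, a partner of a Ras palmitoyltransferase, differed by 54.8 ± 13.4 points (SE), and Rab9, a GTPase of late endosomes, by 50.1 ± 11.8 points (SE). Tspan15, a tetraspanin partner of ADAM10, differed by 48.2 ± 11.5 points (SE). The others were Adam21, Serf1, Tsc22d1, Hyal6 and Plekhb2, and all of these genes had a limma adjusted p between 0.00467 and 0.0465.

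Hoxb8, a homeobox factor known from hindbrain and spinal cord, was the only gene dimmer in polyA. It had 57.96, 77.82, 34.79 and 73.75 in polyA, where 34.79 is an unmeasured spot, and 90.12 to 98.96 in total RNA, with a median of 97.10. Every total RNA replicate was brighter than every polyA replicate. The platform B replicate was at 97.10. The difference was -35.0 ± 8.77 points (SE, limma adjusted p = 0.0465).

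**Figure D3:**
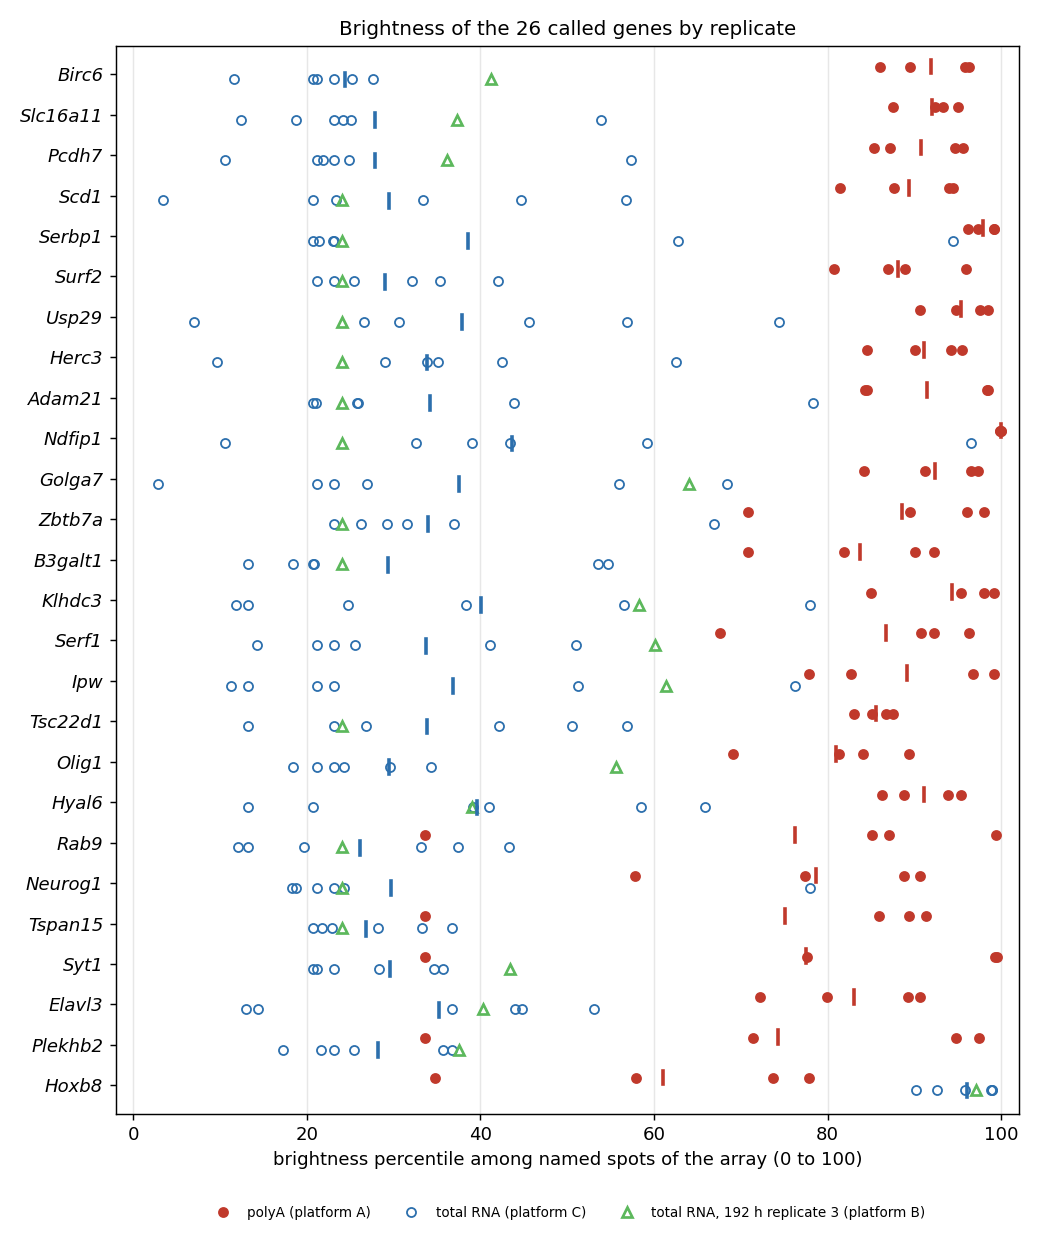
Brightness percentile (0 to 100) of the 26 called genes in each of the 11 replicates; filled points are polyA, open circles total RNA on platform C, triangles the total RNA replicate on platform B, and short bars the group means. The 25 brighter genes have polyA means of 74.31 or more and total RNA means of 43.61 or less, and Hoxb8 has the reverse order.

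The number of calls was small and moved with the processing. On the log2 scale 9 genes were brighter and 2 dimmer, with 4 of the 26 among them, and with time as a covariate 8 were brighter and 0 dimmer. The count was 76 with the PBS channel alone and 2 with the tumor channel alone. With the same 4992 genes it ran from 6 to 39 when 1 replicate was left out, the 39 without total RNA 192 h replicate 3. It was 36 without polyA 18 h replicate 2 and total RNA 18 h replicate 4. Slc16a11 kept its call in 28 of 30 alternatives, Birc6 in 26 and Pcdh7 in 24. Syt1 kept it in 10 of 30, Elavl3 in 8 of 31, Hoxb8 in 8 of 30, and Klhdc3, with the fewest, in 6.

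The 230 genes measured on all 19 arrays were also ranked among themselves. Measured here means both channels above 0 in at least 1 of the 3 scanner files of an array. In a file without this, a spot still shared the lowest rank. The genes named from this set were chosen after their values were seen. In this set 6 genes were called by limma with adjustment over the 230 (2.61%), 3 brighter and 3 dimmer in polyA. The median difference of the 230 was 0.37 points, with 118 above 0. Ranking these genes among themselves holds their mean difference close to 0, so neither value bears on a general shift. None of the 6 was among the 26 above, which the choice of genes all but fixed. Of the brighter genes among the 26 only Elavl3 was measured in all 7 total RNA replicates, and Hoxb8 was measured in 3 of 4 polyA replicates. Every polyA replicate lay above every total RNA replicate for 5 of the 230 genes (2.17%) and below for 3 (1.3%). In the next paragraphs percentiles are among the 230 genes.

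Efhc2, an EF-hand protein, had 98.72, 82.26, 99.36 and 89.10 in polyA and 12.39 to 81.62 in total RNA, with a median of 20.51. The polyA replicates all lay above the total RNA ones, narrowly so at 72 h replicate 4. The difference was 57.3 ± 13.4 points (SE, limma adjusted p = 0.00237). On the log2 scale of quantile-normalised brightness it was 2.71 ± 0.60 (SE).

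Nrsn1, neurensin, a membrane protein of neuronal vesicles, had 99.36, 96.37, 97.22 and 90.60 in polyA and 9.83 to 87.82 in total RNA, with a median of 53.10. The groups did not overlap. The difference was 47.0 ± 12.4 points (SE, limma adjusted p = 0.00958), or 2.43 ± 0.66 (SE) on the log2 scale.

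Scarb2, a lysosomal membrane receptor, had 58.12, 79.70, 42.09 and 68.38 in polyA and 3.31 to 44.23 in total RNA, with a median of 17.95. The ranges touched, since polyA 192 h replicate 1 lay below 2 total RNA replicates. The difference was 41.1 ± 11.04 points (SE, limma adjusted p = 0.00958).

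Pcp4, a calmodulin-binding peptide abundant in several neuron types, showed the largest difference in the other direction. It had 1.92, 10.47, 19.02 and 34.72 in polyA and 50.53 to 97.22 in total RNA, with a median of 77.46. All polyA replicates lay below all total RNA replicates. The difference was -59.2 ± 13.4 points (SE, limma adjusted p = 0.00237), or -2.73 ± 0.56 (SE) on the log2 scale.

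Ndufaf5, an assembly factor of respiratory complex I, had 19.87, 20.94, 1.07 and 32.26 in polyA and 48.61 to 91.88 in total RNA, with a median of 65.81. These groups were also separate. The difference was -48.7 ± 13.1 points (SE, limma adjusted p = 0.00958).

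Fads1, a fatty acid desaturase, had 3.42, 57.91, 35.04 and 28.31 in polyA and 57.69 to 85.58 in total RNA, with a median of 79.49. PolyA 18 h replicate 2 reached the lowest total RNA value, and the other 3 polyA replicates were below all of them. The difference was -43.7 ± 13.3 points (SE, limma adjusted p = 0.0408).

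Efhc2 and Pcp4 stayed called in all 12 fits in which 1 replicate, or both replicates that stood apart, were left out. Nrsn1 stayed called in 11 of 12, Ndufaf5 in 10, Scarb2 in 7 and Fads1 in 4. The count was 3 to 7 over the 11 fits without 1 replicate, with 3 in the fit without polyA 192 h replicate 1. It was 5 without polyA 18 h replicate 2 and total RNA 18 h replicate 4.

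**Figure D4:**
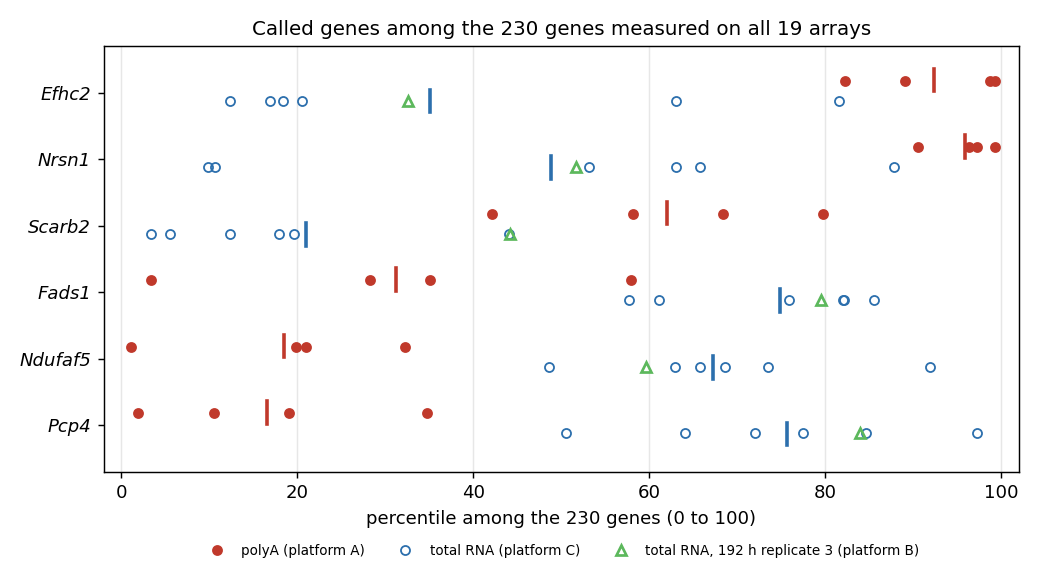
Percentile among the 230 genes measured on all 19 arrays (0 to 100) of the 6 called genes in each replicate; symbols are as in the plot of the 26 called genes, and bars are group means. Efhc2 and Nrsn1 are separate upward in polyA, Pcp4 and Ndufaf5 are separate downward, and Scarb2 and Fads1 touch at the edges.

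Among the 17 genes with every polyA replicate below every total RNA replicate, in ranks over the whole array, Hoxb8 alone was called. Mt1, a metallothionein that binds zinc and copper, had 57.22, 87.96, 34.79 and 80.53 in polyA, where 34.79 is an unmeasured spot. In total RNA it had 88.62 to 99.02, with a median of 98.25. Its highest polyA value fell just short of its lowest total RNA value, and the difference of -31.2 ± 8.49 points (SE) missed the threshold (limma adjusted p = 0.0641). Abhd17a, a depalmitoylating enzyme, differed by -43.0 ± 11.5 points (SE, limma adjusted p = 0.0585), with 2 of 4 polyA replicates measured. Mt1 and Abhd17a were picked for naming after their values were seen.

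Among the 111 genes with every polyA replicate above every total RNA replicate were Kif1a and Dnm1 at the bright end, also picked after their values were seen. Kif1a, a kinesin that carries synaptic vesicle precursors, had 99.34, 99.85, 99.39 and 99.56 in polyA and 66.07 to 97.60 in total RNA, with a median of 89.68. Dnm1, the dynamin of synaptic vesicle endocytosis, had 97.29, 96.40, 98.60 and 98.35 in polyA and 57.89 to 95.30 in total RNA, with a median of 91.51. For both genes the polyA replicates lay close together and the total RNA replicates were spread. Neither difference passed the test, with limma adjusted p of 0.281 for Kif1a (16.0 ± 6.75 points, SE) and 0.342 for Dnm1 (16.8 ± 7.85 points, SE).

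All 8 neuron markers on the arrays were tested, all 8 had a difference above 0, and their median difference was 11.7 points against 3.32 for all genes tested. Only Syt1 passed the test. Of 24 neuronal and synaptic genes, which contain these 8, 19 lay above 0, with a median of 7.81 points. Syt1 and Elavl3 were called and none was called dimmer, which is 2 of 24 against 0.521% of all genes, and both calls were lost in most alternatives.

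Syp, synaptophysin of the synaptic vesicle membrane, had 98.90, 98.63, 99.75 and 99.30 in polyA and 17.46 to 98.43 in total RNA, with a median of 87.80. Its polyA replicates were all at the top, just above the brightest total RNA replicate, and the limma adjusted p was 0.301. Kif5a, a neuronal kinesin heavy chain, was 33.5 ± 11.97 points (SE) brighter in polyA with separate groups, at a limma adjusted p of 0.193. Snap25, a synaptic SNARE protein, was near the top with both RNA types, at 99.1 ± 0.846 (SD, n = 4) and 95.8 ± 2.55 (SD, n = 7). Syn2 and Gap43, each measured in 3 of 4 polyA replicates, had differences of -13.9 ± 12.3 and -9.37 ± 11.5 points (SE) and did not pass the test.

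The medians of both neuronal lists were above the median of all genes in all 30 alternative settings that kept the full range of genes. Their medians ran there from 4.21 to 21.2 points for the neuron markers and from 3.68 to 14.9 points for the neuronal and synaptic genes on the percentile scale. Settings limited to genes measured on all arrays or in every replicate were not among these 30. The neuronal medians in those settings are not given here, so the agreement does not extend to them.

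Markers of other cell types were few. Of 7 oligodendrocyte markers tested 4 lay above 0 and Olig1 was called. Of the 3 astrocyte markers 2 lay above 0, as did 3 of 4 microglial, 2 of 3 blood and 1 of 1 endothelial or mural markers, with none called. Foxj1, Kl and Rarres2, of ependyma and choroid plexus, had differences of -14.1 ± 12.4, -18.3 ± 13.7 and -9.65 ± 13.9 points (SE), and none passed the test. All 3 were unmeasured in polyA 18 h replicate 2, and Foxj1 and Kl also in polyA 192 h replicate 1. Both pituitary markers tested lay above 0, and of 6 markers of neighbouring brain regions 2 did. The part that cell composition had in the neuronal differences was not tested, and in bulk samples fewer cells of a type and less RNA per cell cannot be told apart.

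Of 8 hypothalamic markers on the arrays, 5 were measured often enough with both RNA types to be tested, and none was called. Oxt, oxytocin, was at 98.4 ± 0.917 (SD, n = 4) in polyA and 97.5 ± 3.37 (SD, n = 7) in total RNA. Pmch, the precursor of melanin-concentrating hormone, had 99.76, 95.97, 99.25 and 99.85 in polyA and 21.22 to 99.52 in total RNA, with a median of 90.24. Total RNA replicates were spread widely, and the difference of 31.1 ± 12.2 points (SE) did not pass (limma adjusted p = 0.235). Avp, vasopressin, had 76.30, 33.60, 92.96 and 34.02 in polyA, where 33.60 is an unmeasured spot, and 36.17 to 99.38 in total RNA, with a median of 97.72. It differed by -25.9 ± 12.7 points (SE, limma adjusted p = 0.375). Hcrt and Nkx2-1 differed by 13.3 ± 14.5 and 15.6 ± 12.6 points (SE). Otp, Sim1 and Trh were measured in at most 1 polyA replicate and were not tested.

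Of 13 neuropeptide genes tested, 6 lay above 0, with a median of -0.47 points. The list's median was below that of all genes in all 30 alternatives with the full range of genes. Of the 13 genes 9 were unmeasured in polyA 18 h replicate 2 and 5 in polyA 192 h replicate 1. Cartpt, the precursor of CART peptides, had 71.92, 33.60, 34.79 and 47.48 in polyA, where 33.60 and 34.79 are unmeasured spots. In total RNA it had 77.88 to 96.59 with a median of 91.08. All polyA replicates were below all total RNA replicates, and the difference of -42.0 ± 11.9 points (SE) missed the threshold (limma adjusted p = 0.0756). Gnrh1, of the reproductive axis, differed by -30.9 ± 13.3 points (SE, limma adjusted p = 0.296), with 2 of 4 polyA replicates measured.

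The enzymes and granins that process and store peptides were fewer on the arrays. Of 7 tested, 6 were above 0, with a median of 15.6 points and none called. Pam, the peptide-amidating enzyme, differed by 36.2 ± 11.3 points (SE, limma adjusted p = 0.114), and Pcsk1n, an inhibitor of a prohormone convertase, by 20.3 ± 9.87 points (SE, limma adjusted p = 0.367). This median turned to -0.57 points with ranks among measured spots only, a setting in which the median of all genes was also below 0. It was above the median of all genes in 29 of the 30 alternatives with the full range of genes.

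Of 15 proteasome subunits tested, 4 were above 0 and 11 below, with a median of -10.6 points and none called. Psmb6 and Psmb3, of the catalytic core, differed by -24.2 ± 8.92 and -24.7 ± 9.24 points (SE, limma adjusted p = 0.205 and 0.210). Psmb6 had a total RNA mean of 92.7 ± 7.06 (SD, n = 7) and a polyA mean of 68.6 ± 24.2 (SD, n = 4), the latter with 3 of 4 replicates measured. In all 30 alternatives with the full range of genes this median was below 0 and below that of all genes. With only the genes measured in every replicate, 3 proteasome genes were left and their median turned to 4.23 points. Of the 15 genes 9 were unmeasured in polyA 18 h replicate 2, whose median percentile of the list, 33.6, is the shared value of unmeasured spots, and 4 in polyA 192 h replicate 1. In total RNA 1 of the 15 was unmeasured in 18 h replicate 3 and 0 in the others. The other 3 polyA replicates had list medians of 74.87 to 76.64 and the total RNA replicates of 62.67 to 92.91.

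Of 47 genes of oxidative phosphorylation tested, 20 were above 0 and 27 below, with a median of -7.04 points and none called. Ndufs4, a subunit of complex I, had 56.58, 33.60, 34.79 and 56.54 in polyA, 2 of them unmeasured, and 63.97 to 97.34 in total RNA, with a median of 90.36. Its groups did not overlap, and the difference of -42.9 ± 12.2 points (SE) missed the threshold (limma adjusted p = 0.0756). Cox6b1, of cytochrome c oxidase, differed by -23.2 ± 7.47 points (SE, limma adjusted p = 0.130), with 3 of 4 polyA replicates measured. Other members lay the other way, such as Cox7c at 31.9 ± 12.7 points (SE, limma adjusted p = 0.248). The median was below 0 in all 30 alternatives with the full range of genes. With only genes measured in every replicate, 15 were left and their median turned to 0.99 points. Of the 47 genes 21 were unmeasured in polyA 18 h replicate 2 and 16 in polyA 192 h replicate 1, against 0 to 5 in the total RNA replicates.

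Cytosolic ribosomal protein genes were split. Of 33 tested, 16 lay above 0 and 17 below, with a median of -1.82 points and none called. Rpl3 had 96.03, 99.03, 98.59 and 98.62 in polyA, and in total RNA from 9.18 to 99.45 with a median of 21.22. Its total RNA values fell apart into 3 replicates at 94.89 or more and 4 at 21.22 or less. Rps12, measured in 3 of 4 polyA replicates, differed by -20.7 ± 7.62 points (SE, limma adjusted p = 0.205). The sign of the list's median changed between alternatives, being above 0 in 6 of 30. It was below the median of all genes in 27 of 30. Of the 33 genes 12 were unmeasured in polyA 18 h replicate 2.

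**Figure D5:**
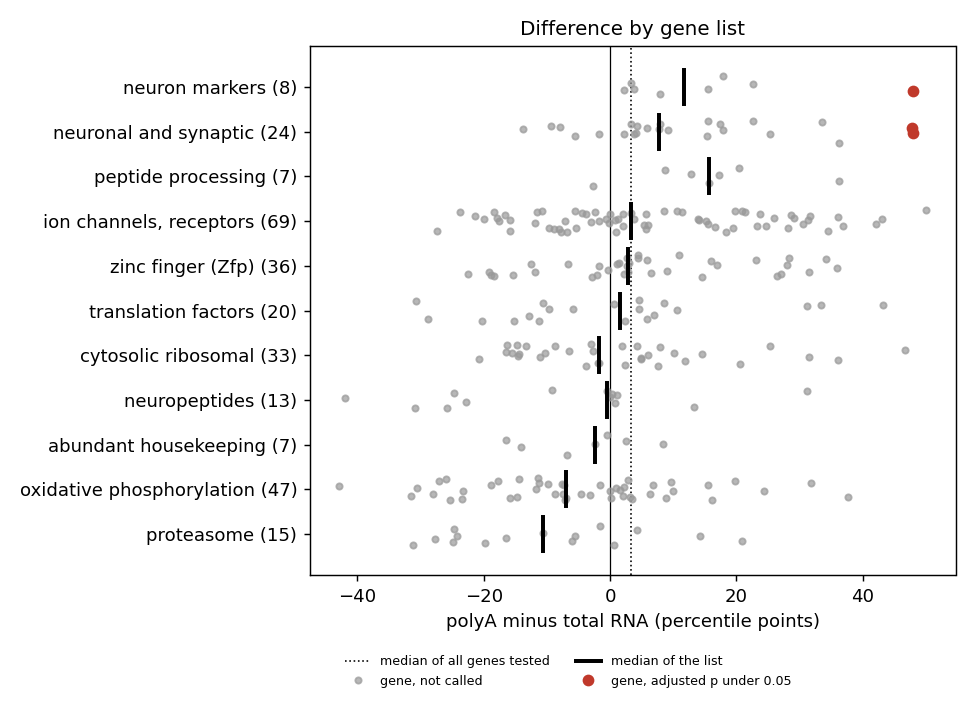
Difference in brightness between polyA and total RNA in percentile points for every tested gene of 11 lists, 1 point a gene, with the number of genes in brackets. Thick bars are list medians, from 11.7 points for the neuron markers to -10.6 points for the proteasome, and the dotted line is the median of all genes tested, 3.32 points; red points are called genes.

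RNAs that differ in their tails were hardly measured. Of 6 replication-dependent histone genes on the arrays, H4c1 alone was tested. It had 82.30, 94.51, 74.05 and 51.09 in polyA and 36.93 to 78.35 in total RNA, with a median of 45.36, and the difference of 23.1 ± 13.5 points (SE) did not pass (limma adjusted p = 0.474). H1f5, H1f6 and H2bc4 were measured in all 7 total RNA replicates and in 1 polyA replicate each. Of all 8726 genes, 672 (7.7%) were measured in every total RNA replicate and in at most 1 polyA replicate, with fewer arrays to a polyA replicate. H1f4 was measured in 0 polyA and 3 total RNA replicates, and H1f1 in 2 of each.

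H2bc4 was at 52.20 in polyA 18 h replicate 1 and unmeasured in the other 3 polyA replicates, and in total RNA it ran from 40.59 to 87.18. H1f6, a testis-type linker histone, was at 43.42 in polyA 192 h replicate 2 and unmeasured in the others, against 25.70 to 92.63 in total RNA. The variant histones H2az1, H3f3b and Macroh2a1, whose messages have tails, differed by -6.81 ± 11.95, 8.40 ± 13.3 and 20.7 ± 10.3 points (SE), none called. H2az1 and H3f3b were each measured in 3 of 4 polyA replicates.

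Among named non-coding RNAs, Meg3, a polyadenylated imprinted RNA of neurons, was near the top in polyA with 97.70, 99.92, 98.29 and 99.14. In total RNA it had 59.72 to 99.82 with a median of 95.59, so the groups overlapped (difference 11.2 ± 6.56 points, SE, limma adjusted p = 0.481). Mir99ahg was measured in 1 polyA and 7 total RNA replicates and was not tested. Xist, which male tissue is not expected to make, was measured in 1 polyA and 6 total RNA replicates, with values of 25.12 to 54.78 in the latter apart from the unmeasured one. The arrays carried no named gene of the mitochondrial genome. Of 129 genes not expected in brain, such as olfactory receptors and keratins, 38 were tested, and the medians of their mean percentiles were 52.9 in polyA and 51.9 in total RNA, against 60.9 and 58.3 for all genes tested.

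The genes tested were also split into 4 equal groups by level and by span. In the dimmest 1248 genes by mean percentile the median difference was 8.18 points, with 81.1% above 0, and in the brightest 1248 it was -1.13 points, with 47.4% above 0. In the dimmest group 44.4% of the polyA values and 22.7% of the total RNA values were unmeasured and stood at the shared values, which lie higher in polyA, so its differences are not a measure of brightness. In the brightest group these shares were 12.3% and 1.09%. By gene span the medians were 1.51, 2.03, 4.48 and 4.86 points from the shortest to the longest genes. Of the 25 brighter calls, 6 were in the dimmest group, 16 in the next, 3 in the one above it and 0 in the brightest. The groups were cut by the mean of the same values that gave the calls. The brightest group began at a mean percentile of 71.04, which a gene brighter in polyA by 46.11 points or more cannot reach. The 25 brighter calls all differed by at least that much, so none could lie in this group. A smaller difference could still be called there, as was that of Hoxb8 in the other direction (-35.0 ± 8.77 points, SE). Genes are not independent replicates, and these values are descriptions.

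The total RNA replicate on platform B was set beside the other replicates as a description, with no test. With this replicate left out and the filter applied anew, 5070 genes were tested and 45 called, all brighter in polyA. At 18 of the 45 the platform B replicate was unmeasured, at its shared value of 24.1, and these 18 all lay nearer to the other total RNA replicates. That was fixed by the choice of genes, which had low means in the other total RNA replicates and high means in polyA. Of the 27 measured there, 9 (33.3%) lay nearer to total RNA and 18 nearer to polyA, against 53.6% nearer to total RNA among the 4118 genes tested that it measured. With unmeasured spots included, 27 of the 45 (60%) lay nearer to total RNA, against 58% of all 5070. Among the 230 genes, 6 were called without it, and it lay nearer to total RNA for 4 of the 6, namely Efhc2, Nrsn1, Pcp4 and Ndufaf5, against 57.8% of all 230. It lay nearer to polyA for Scarb2 and Syn3. Genes called without a replicate tend to differ less in that replicate than in those used for the choice. The shares of called genes and of all genes are therefore not like for like, and no conclusion on print platform is drawn from them.

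The difference between polyA and total RNA was compared between 18 h and 192 h, the times at which both RNA types were present. No gene passed by limma's interaction term with adjustment over 4992 genes (0%), with a smallest adjusted p of 0.998 and 165 genes at an unadjusted p under 0.05. Within a single time the test called 0 genes at 18 h (320 at an unadjusted p under 0.05) and 0 at 192 h (320). The interaction rests on 2 polyA replicates at each time.

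For many genes with several probes the probes differed in direction. Of 141 genes with several tested probes, 80 had all differences of the same sign. Of the 26 called genes, Tsc22d1 alone had several tested probes, with differences of 51.8 ± 12.1 and 37.6 ± 13.03 points (SE). Probes of a gene could also differ in size. Gapdh, an example picked after its values were seen, had differences of 43.5 ± 14.5, 8.45 ± 13.04 and 63.5 ± 12.5 points (SE). The probe at 8.45 points stood for the gene, so calls depend on which probe is chosen.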

How the data were processed

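Each array came with 3 scanner files. Per the file headers, the deposited intensities of both channels had been corrected for local background by the authors. Of 1149120 deposited intensities in the arrays used, 34.3% were 0 and 945 were below 0. No label or header names the quantification software or says how the 3 files differ. The authors' deposited log ratios per probe, whose log base is not stated, served only to place probes on the print layout. Probes were named through the platform annotation (9074 spots with 1 symbol on platform A and 9066 on B and C, 12 with several and 994 to 1002 with none) and RefSeq symbols. Probe and protein sequences were not used here.

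Brightness was ranked as given above, averaged over the 3 files, ranked again within the array and averaged over the arrays of a replicate. The probe with the highest mean percentile over the 19 arrays stood for a gene. Since 14 of these were total RNA arrays, the choice leaned towards probes bright in total RNA. The number of arrays limits the precision. Tests used lmFit and eBayes (trend) of limma 3.58.1 in R 4.3.3 with the data.table package, version 1.17.8, two-sided, at an adjusted p of 0.05. The exact permutation test used scipy in Python. On simulated percentiles of the 4992 genes, 200 of them changed, the fit recovered 26% of the 30-point and 90% of the 60-point changes, with 5 false calls.

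Named genes were the called genes, among them the 12 with the largest difference and separate groups in each direction, every measured histone, non-coding and mitochondrial gene, and from each other list the 2 members with the smallest p in each direction. Kif5a, Snap25, Oxt, Rarres2, Syn3, Nptx2, Kif1a, Dnm1, Mt1, Abhd17a and the genes of the 230-gene set were added after their values were seen. The members, lists and settings were chosen with earlier results of these data known. Protein length was not used. Alternatives covered the treatment of unmeasured spots, log2 values in place of ranks, channel, background, file, print block, probe, filter, trend, time and each replicate.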

Additional observations from a re-analysis of the deposited data

Results flagged for a closer look

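Replicates were looked at for values far from the rest of their group, by the gap to the nearest other replicate as a share of the group's range. Of 246 groups looked at, 32 held such a value. The rule flags about 1 in 20 groups by chance if values are normally distributed. That rate does not apply to bounded percentiles with a shared lowest rank, nor to genes picked partly by their values. All values are brightness percentiles, and no explanation was tested.

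In polyA 18 h replicate 1, the unmeasured spots of H3f3b and Gap43 stood at 24.08, apart from the other polyA replicates. Rpl3 was at 96.03 in polyA 18 h replicate 1, against 98.59 to 99.03 in the other replicates of that RNA type. C1qb was at 66.97 in polyA 18 h replicate 1, against 32.86 to 34.79 in the other replicates of that RNA type, 2 of which were unmeasured. Gnrh1 was at 74.82 in polyA 18 h replicate 1, against 32.77 to 34.79 in the other replicates of that RNA type, 2 of which were unmeasured. Scg2 was at 81.46 in polyA 18 h replicate 1, against 97.29 to 98.55 in the other replicates of that RNA type. Pcp4 was at 61.58 in polyA 18 h replicate 1, against 78.79 to 80.62 in the other replicates of that RNA type. In polyA 18 h replicate 2, the unmeasured spots of Gapdh, Rps12, Rps16, S100b, Neurod6, Zfp623, Tspan15 and Nptx2 stood at 33.6, apart from the other polyA replicates. Slc1a3 was at 80.39 in polyA 18 h replicate 2, against 93.33 to 94.28 in the other replicates of that RNA type. Pmch was at 95.97 in polyA 18 h replicate 2, against 99.25 to 99.85 in the other replicates of that RNA type. Tbx19 was at 52.07 in polyA 192 h replicate 2, against 89.58 to 93.06 in the other replicates of that RNA type. Adam21 was at 78.27 in total RNA 192 h replicate 4, against 20.68 to 43.91 in the other replicates of that RNA type, 2 of which were unmeasured. Psmb6 was at 77.07 in total RNA 192 h replicate 4, against 92.74 to 97.29 in the other replicates of that RNA type. Abhd17a was at 70.31 in total RNA 192 h replicate 4, against 88.12 to 98.66 in the other replicates of that RNA type. Zbtb7a was at 66.88 in total RNA 18 h replicate 3, against 23.11 to 37.01 in the other replicates of that RNA type, 2 of which were unmeasured. Psmb3 was at 79.33 in total RNA 18 h replicate 3, against 92.57 to 96.3 in the other replicates of that RNA type. H2az1 was at 21.38 in total RNA 18 h replicate 4, against 84.42 to 98.2 in the other replicates of that RNA type. Avp was at 36.17 in total RNA 18 h replicate 4, against 77.63 to 99.38 in the other replicates of that RNA type. C1qc was at 13.72 in total RNA 18 h replicate 4, against 36.17 to 46.77 in the other replicates of that RNA type. Pitx1 was at 36.76 in total RNA 18 h replicate 4, against 83.5 to 96.3 in the other replicates of that RNA type. Neurog1 was at 77.92 in total RNA 18 h replicate 4, against 18.3 to 24.29 in the other replicates of that RNA type, 3 of which were unmeasured. Olig1 was at 55.56 in total RNA 192 h replicate 3, against 18.46 to 34.26 in the other replicates of that RNA type, 2 of which were unmeasured. Ndufs4 was at 63.97 in total RNA 72 h replicate 4, against 87.1 to 97.34 in the other replicates of that RNA type. Eif3f was at 99.86 in total RNA 18 h replicate 5, against 17.64 to 48.53 in the other replicates of that RNA type, 2 of which were unmeasured. Zfp704 was at 76.92 in total RNA 18 h replicate 5, against 36.54 to 49.65 in the other replicates of that RNA type.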

How the results depend on the processing

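The direction of 25 of the 26 called genes was the same under every alternative that gave a value. Tsc22d1 turned to -2.56 points with ranks among measured spots only and to -0.78 on the log2 scale. Calls were less stable, and 354 of 781 values of called genes kept an adjusted p under 0.05. Of 32 alternatives, 13 left the count within 1.5 times of 26. By limma, the count was 9 with ranks among measured spots only, 6 among genes measured on all arrays and 11 on the log2 scale. It was 76 with the PBS channel, 2 with the tumor channel, 5 with Cy3, 47 with Cy5 and 6 with the first file. It was 3 with genes measured in every replicate, 8 with time as a covariate, 7 without 72 h, 0 at 18 h alone and 0 at 192 h alone, where 320 genes each had an unadjusted p under 0.05. The cause of these changes was not tested, apart from fewer genes or samples where the setting removes them. With the same 4992 genes it ran from 6 to 39 without 1 replicate (45 of 5070 genes without total RNA 192 h replicate 3 when the filter was applied anew), with 6 without polyA 18 h replicate 1 or 192 h replicate 2, 10 without polyA 192 h replicate 1, and 7, 14 and 11 without total RNA 72 h replicate 3, 72 h replicate 4 and 192 h replicate 4. Among the 230 genes measured on all arrays the count ran from 3 to 7. The difference in spots measured was -2263 (exact permutation p = 0.0606) and -1381 with all 3 files required (exact permutation p = 0.0485). Among the other named genes, 81 of 2746 values changed sign and 25 passed the threshold. No paired analysis was possible because the polyA replicates carry the numbers 1 and 2 and the total RNA replicates 3 to 5. Leaving out polyA 18 h replicate 2 and total RNA 18 h replicate 4 was chosen after seeing the data.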
